A study of Mus musculus with 35 samples.

Results

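Imprinted genes are read from only 1 of the 2 parental copies, because the other copy was silenced by a mark laid down in the egg or sperm. Most lie in clusters on the autosomes, where a methylated control region and often a long noncoding RNA switch paternally and maternally expressed neighbours in opposite ways. As a group they are known for setting embryonic and placental growth and for roles in the developing brain. The 34 imprinted genes described here were chosen by name, and all 34 are among the 23366 genes of the RNA table and passed the filter on low counts. From textbook knowledge, 20 are classed as paternally expressed, 11 as maternally expressed, and 3 (Grb10, Ube3a and Gnas) as dependent on the tissue or promoter. A class need not hold in every tissue: Dcn, classed as maternally expressed, is known to be imprinted in the placenta. The reads do not tell the parental copies apart, so each value is the sum of both copies and none of it measures imprinting itself.

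The RNA libraries came from cranial neural crest, the embryonic cells that form much of the face, sorted at E12.5 as Tomato-positive, DAPI-negative cells. Wnt1-Cre switched on the Rosa-Tomato reporter in every group, and Wnt1 is known to be active in the dorsal neural tube and midbrain as well as in the crest. The male knockout (Utx fl/y, Wnt1-Cre; mko1 and mko2) and the female knockout (Utx fl/fl, Wnt1-Cre; fko1 and fko2) lose UTX, the histone H3 lysine 27 demethylase encoded by Kdm6a, in the Wnt1-Cre lineage. The wild type (WT Wnt1-Cre; wt1 and wt2) was male, so in the female comparison sex and genotype go together. Nothing in the labels says whether a library came from 1 embryo or several, so p-values measure only the spread between these libraries. Both knockouts are set against the same 2 wild-type libraries.

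Reads on genes ranged from 14513993 to 16350892 per library, and the 34 imprinted genes took 1.08% to 1.25% of them. Levels are given as CPM, a gene's count relative to all reads on genes in its library, scaled by edgeR's TMM factors, and are compared between libraries and never between genes, whose lengths differ. Kdm6a was read in every library, at 40.5 and 31.9 CPM in the male knockout, 52.9 and 62.4 CPM in the female knockout and 45.6 and 51.5 CPM in wild type. Counts over the whole gene cannot show loss of a floxed segment, so they do not check the knockout. The share of reads that HTSeq left without a gene split the libraries into 2 sets, 16.6% to 16.8% in mko2, fko1 and wt1, and 20.9% to 21.5% in mko1, fko2 and wt2. Each genotype has 1 library in each set, and the labels do not say what the sets are. Markers of neural crest and facial mesenchyme summed to between 2481 and 2744 CPM in the 4 knockout libraries and to 2125 and 2272 CPM in wild type, with 1 of 16 called higher (Twist2), none lower and none at 0 in any library.

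The mean of both knockouts was set against wild type to ask which imprinted genes differed between knockout and wild type. Since the female knockout enters this mean and the wild type was male, sex goes partly with genotype here too. Magel2, Meg3 and Nap1l5 fell and Dcn rose, while the other 30 did not pass the threshold, an adjusted p under 0.05 in edgeR's quasi-likelihood test with Benjamini-Hochberg adjustment over 14521 genes. Among all genes tested the same rule called 5.11%, with 1.07% higher and 4.04% lower. Of the paternally expressed genes 2 of 20 fell and none rose, and of the maternally expressed genes 1 of 11 fell and 1 rose. None of the 3 tissue- or promoter-dependent genes passed. The median log2 fold change was -0.20 for the paternally expressed genes, -0.14 for the maternally expressed genes and 0.01 for all genes tested. The maternal median depended on single libraries, at -0.33 without mko1, 0.02 without mko2, 0.03 without fko1, -0.38 without fko2, -0.27 without wt1 and -0.01 without wt2, while the paternal one moved by less than 1.5 times. At an unadjusted p under 0.05 in the same test, 10 of the 34 were lower and 3 higher, where 14.6% and 11.4% of all genes were.

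**Figure D1:**
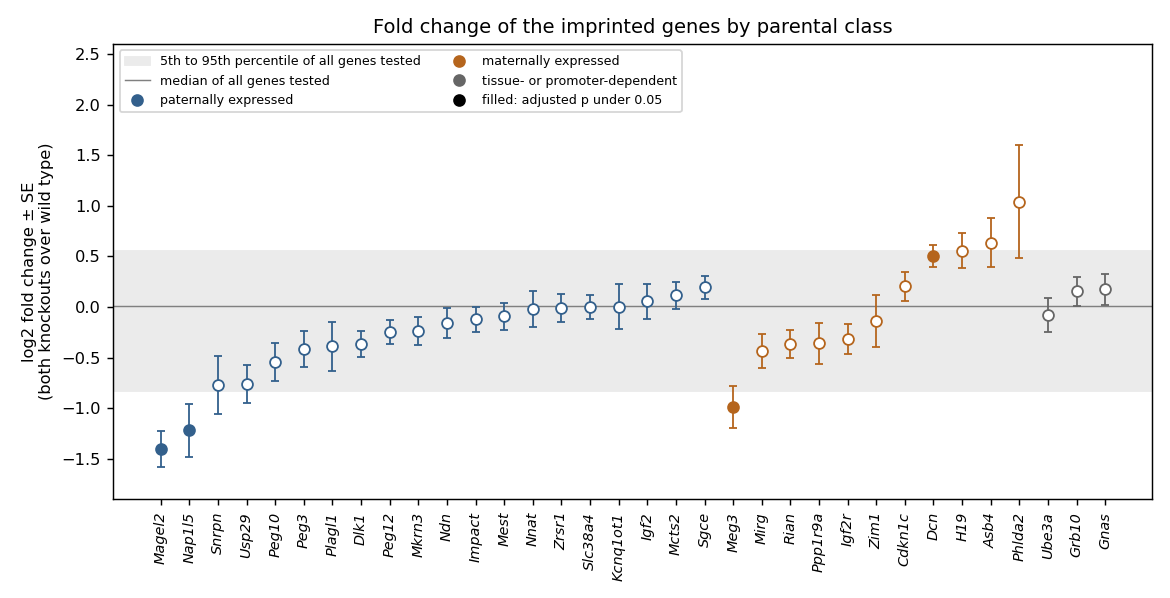
Log2 fold change of each imprinted gene, both knockouts over wild type, with its standard error (edgeR, 4 knockout and 2 wild-type libraries). Filled points passed the adjusted threshold: Magel2, Nap1l5 and Meg3 are lower and Dcn is higher, and the grey band holds the middle 90% of all genes tested.

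By level alone, all 4 knockout libraries lay below both wild-type libraries for 13 of the 34 genes and above both for 5. Over all genes tested the shares were 20.1% and 18.9%. The 13 were 9 of 20 paternally expressed genes (Dlk1, Magel2, Mkrn3, Nap1l5, Peg10, Peg12, Peg3, Snrpn and Usp29) and 4 of 11 maternally expressed genes (Igf2r, Meg3, Mirg and Rian). The 5 were H19, Dcn, Sgce, Mcts2 and Grb10. Without the TMM factors the counts were 15 below and 2 above, against 29.5% and 9.83% of all genes, since the unscaled CPM of the median gene was 0.104 lower on the log2 scale in the knockouts. The cells are a bulk sample, in which fewer cells of a type and less RNA per cell cannot be told apart.

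**Figure D2:**
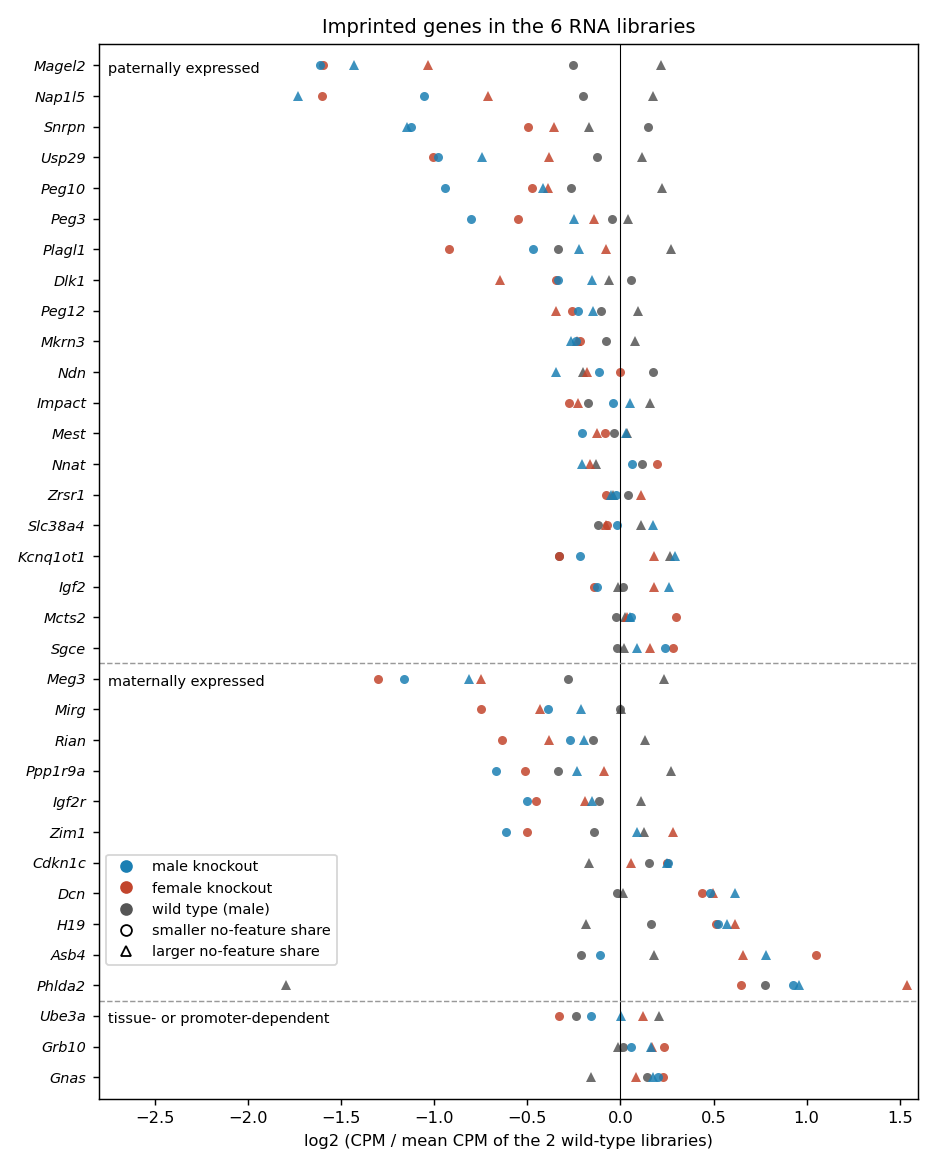
Level of each imprinted gene in each of the 6 libraries as log2 of its CPM over the wild-type mean. All 4 knockout points lie left of both wild-type points for 13 genes, Magel2, Nap1l5 and Meg3 among them, and right of both for 5; Phlda2, with 3 to 30 counts per library, is spread most widely. Triangles mark the 3 libraries of the larger no-feature share.

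Markers of the central nervous system fell together with Magel2, Meg3 and Nap1l5. Of the 12 listed, 11 were tested and 10 fell, while none was called higher, at a median log2 fold change of -1.65. Their summed level was 93.5 to 126 CPM in the knockouts, against 253 and 298.5 CPM in wild type, and none was at 0 in any library. Neurog2, a proneural factor gene, lay between 7.96 and 10.4 CPM in the knockouts, against 33.7 and 35.0 CPM in wild type. En1, the tested marker that did not fall, lay between 13.4 and 14.8 CPM in the knockouts, against 11.1 and 8.19 CPM in wild type. Its log2 fold change of 0.55 did not pass (SE 0.173, edgeR adjusted p = 0.104). Of 6 tested osteoblast markers 1 rose (Spp1), at a list median of 0.08 on the log2 scale. The summed level of that list was lower, at 758 to 1163 CPM in the knockouts, against 1290 and 1352 CPM in wild type. Its member Col1a1 lay between 640.5 and 1014 CPM in the knockouts, against 1153 and 1225 CPM in wild type. Col1a1 did not pass (log2 fold change -0.59, SE 0.166, edgeR adjusted p = 0.0783). Macrophage markers summed to between 6.003 and 8.46 CPM, against 11.5 and 12.85 CPM in wild type, with none called. Skeletal muscle markers summed to between 2.41 and 5.06 CPM, against 5.69 and 5.95 CPM in wild type, with 1 of 5 lower. Erythroid markers reached 278 CPM in 1 knockout library, against at most 116 CPM in wild type, with none called. In the chondrocyte list 1 of 7 was higher, and none was called among glial, endothelial and epithelial markers. The part of neural cells in the levels of the imprinted genes was not tested.

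Magel2, a paternally expressed MAGE-family gene of the Prader-Willi region on chromosome 7 that helps recycle proteins from endosomes and is known for its role in hypothalamic neurons, had the smallest p of the 34. It had 29.2 and 25.8 CPM in the male knockout and 26.0 and 38.4 CPM in the female knockout, against 66.0 and 91.3 CPM in wild type. Every knockout library was below both wild-type libraries, and the knockout mean was 0.379 of the wild-type mean. For both knockouts together the log2 fold change was -1.40 (edgeR adjusted p = 0.00632, SE 0.179). It was the 1 imprinted gene of 34 to pass in the male knockout alone (-1.52, SE 0.219, edgeR adjusted p = 0.0177), where 2.34% of all genes passed. It was also the 1 to pass in the female knockout alone (-1.29, SE 0.217, edgeR adjusted p = 0.037), where 1.12% of all genes passed. Within the set of smaller no-feature share the log2 ratio to wild type was -1.36 for the male and -1.35 for the female knockout, and within the other set -1.64 and -1.25. In the combined comparison Magel2 passed under all 12 alternative settings. The male call was lost without mko1 or mko2 (edgeR adjusted p = 0.124 and 0.122), and the female call without mko1, mko2 or wt2 (0.0681, 0.0692 and 0.0542) and with only the groups compared (0.093).

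The Magel2 start region is shown because it belongs to the gene with the clearest change. It is the 300-base RefSeq promoter window (GRCm38.p6, chr7:62376729-62377028, plus strand, from 250 bases before to 50 bases after the start), with each CpG, the pair of bases that carries DNA methylation, in capitals.
Magel2: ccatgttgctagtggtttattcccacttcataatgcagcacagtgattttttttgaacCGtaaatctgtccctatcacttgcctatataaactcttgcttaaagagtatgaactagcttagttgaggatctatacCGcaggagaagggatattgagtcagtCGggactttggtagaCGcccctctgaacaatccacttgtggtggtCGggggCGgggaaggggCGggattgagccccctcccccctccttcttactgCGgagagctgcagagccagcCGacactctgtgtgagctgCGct
It holds 10 CpGs.

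None of the other 5 imprinted genes of the Prader-Willi and Angelman region on chromosome 7 passed. Ndn, which codes for the MAGE-family growth suppressor necdin, had 229 and 269 CPM in the male knockout, 290 and 257 CPM in the female knockout, and 328 and 253 CPM in wild type, so the groups overlapped. Mkrn3, a ubiquitin ligase gene known for restraining puberty, lay between 10.9 and 11.3 CPM in the 4 knockout libraries, against 12.4 and 13.8 CPM in wild type. Peg12, a relative of the Wnt pathway genes Frat1 and Frat2 with which it could share reads, lay between 25.4 and 29.1 CPM in the knockouts, against 30.1 and 34.5 CPM in wild type. Neither Mkrn3 nor Peg12 passed (edgeR adjusted p = 0.306 and 0.225), though no knockout library reached wild type. Frat2 lay between 8.09 and 10.27 CPM in the knockouts, against 12.98 and 14.33 CPM in wild type. Frat1 lay between 7.69 and 8.65 CPM, against 9.88 and 11.58 CPM in wild type. Neither Frat gene passed (edgeR adjusted p = 0.0631 and 0.165), and sharing of reads with Peg12 was not tested. Snrpn, which codes for a splicing protein of neurons, was barely read, with 11 and 12 counts in the male knockout, 18 and 20 counts in the female knockout, and 29 and 23 in wild type. Its log2 fold change of -0.77 (edgeR adjusted p = 0.144, SE 0.286) did not pass. Snurf, which overlaps Snrpn, had at most 0.0653 CPM, and HTSeq's usual mode gives reads that fit both genes to neither, so the Snrpn level is uncertain. Ube3a, the ubiquitin ligase gene of Angelman syndrome, read from the maternal copy in neurons and from both copies elsewhere, lay between 81.4 and 111 CPM in the knockouts, against 86.5 and 118 CPM in wild type. Ipw, a noncoding RNA of the same region that was looked up after the values were seen, had 9.81 and 6.01 CPM in the male knockout and 8.48 and 17.3 CPM in the female knockout, against 23.4 and 29.9 CPM in wild type (log2 fold change -1.40, SE 0.277, edgeR adjusted p = 0.0269).

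The ratio of Magel2 to Ndn counts was 0.128 in mko1, 0.0959 in mko2, 0.0896 in fko1 and 0.15 in fko2, against 0.201 in wt1 and 0.36 in wt2. It was lower in each knockout library than in both wild-type libraries. The size of this ratio also reflects gene length, so only its difference between libraries is read.

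In the Dlk1-Meg3 cluster on chromosome 12, the maternally expressed noncoding RNAs Meg3, Rian and Mirg are transcribed one after another in the same direction, and Dlk1, which codes for a Notch-like membrane protein that holds back differentiation, is expressed from the paternal copy. Meg3 had 498 and 391 CPM in the male knockout and 355 and 521 CPM in the female knockout, against 719 and 1031 CPM in wild type. The highest knockout library was below the lowest wild-type library, and the knockout mean was 0.504 of the wild-type mean. The log2 fold change for both knockouts was -0.99 (edgeR adjusted p = 0.0306, SE 0.204). In the male and female knockouts alone it was -0.978 and -0.999, and neither passed (edgeR adjusted p = 0.0754 and 0.0962). The combined call was lost without mko1, mko2 or wt2 (edgeR adjusted p = 0.0689, 0.104 and 0.157). Within the sets the log2 ratios to wild type were -0.88 (male) and -1.02 (female) in the set of smaller no-feature share, and -1.05 and -0.99 in the other.

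Rian, Mirg and Dlk1 stood below both wild-type libraries in every knockout library, but none passed. Rian, which carries small nucleolar RNAs, had 383 and 364 CPM in the male knockout and 283 and 337 CPM in the female knockout, against 397 and 481 CPM in wild type (log2 fold change -0.37, SE 0.137, edgeR adjusted p = 0.146; -0.24 without wt2). Mirg, a host of microRNAs, had 8.72 and 7.72 CPM in the male knockout and 6.003 and 7.49 CPM in the female knockout, against 10.07 and 10.11 CPM in wild type (-0.44, SE 0.167, edgeR adjusted p = 0.151). Dlk1 had 167 and 147 CPM in the male knockout and 146 and 119 CPM in the female knockout, against 193 and 178 CPM in wild type (-0.36, SE 0.128, edgeR adjusted p = 0.13). Among Meg3, Rian, Mirg and Dlk1, genes expressed from opposite parental copies therefore lay on the same side of wild type. Not every imprinted gene known from this cluster did so. Dio3 lay between 2.18 and 3.68 CPM in the knockouts, against 1.65 and 1.34 CPM in wild type. It did not pass (log2 fold change 0.88, SE 0.288, edgeR adjusted p = 0.114). Rtl1 lay between 2.13 and 3.06 CPM in the knockouts, against 2.91 and 2.30 CPM in wild type, and overlapped. The ratio of Meg3 to Rian counts was 1.30 in mko1, 1.07 in mko2, 1.26 in fko1 and 1.54 in fko2, against 1.81 in wt1 and 2.14 in wt2, without overlap. The ratio of Meg3 to Dlk1 was 2.98 in mko1, 2.66 in mko2, 2.43 in fko1 and 4.39 in fko2, against 3.73 in wt1 and 5.79 in wt2, and here fko2 lay above wt1.

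Of the 2 Meg3 windows, the one with more CpGs (GRCm38.p6, chr12:109540746-109541045, plus strand, CpGs in capitals) is shown for comparison with that of Magel2, since both genes fell.
Meg3: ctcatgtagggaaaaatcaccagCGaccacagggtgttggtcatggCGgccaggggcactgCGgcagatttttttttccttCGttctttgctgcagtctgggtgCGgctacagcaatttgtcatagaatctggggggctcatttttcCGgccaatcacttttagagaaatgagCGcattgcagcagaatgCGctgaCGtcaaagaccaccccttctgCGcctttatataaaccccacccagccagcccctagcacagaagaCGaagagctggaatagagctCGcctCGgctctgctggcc
It holds 13 CpGs and 1 match to TGCCGC, the 6 letters that the zinc finger protein ZFP57 is known to bind when they are methylated at imprinting control regions. The match lies on the opposite strand, so the printed strand shows its reverse complement, GCGGCA.

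Nap1l5, a paternally expressed nucleosome assembly gene that lies inside an intron of Herc3 on chromosome 6, had 5.31 and 8.48 CPM in the male knockout and 5.81 and 10.8 CPM in the female knockout, against 15.3 and 19.9 CPM in wild type. All 4 knockout libraries were below both wild-type libraries, with a mean of 0.431 of wild type. The log2 fold change was -1.22 (edgeR adjusted p = 0.0363, SE 0.263) for both knockouts, and it did not pass in the male (-1.35, edgeR adjusted p = 0.0683) or the female knockout alone (-1.08, edgeR adjusted p = 0.142). Its call was lost without mko1, mko2 or wt2 (edgeR adjusted p = 0.0983, 0.0501 and 0.134). Herc3, the host, had 13.8 and 11.3 CPM in the male knockout and 9.72 and 14.3 CPM in the female knockout, against 15.6 and 19.9 CPM in wild type, and did not pass (-0.53, SE 0.194, edgeR adjusted p = 0.14). The kit keeps strand, but the strand setting of the counting is not given, so reads from Herc3 introns could enter the Nap1l5 counts.
The Nap1l5 window (GRCm38.p6, chr6:58907077-58907376, minus strand, CpGs in capitals) follows.
Nap1l5: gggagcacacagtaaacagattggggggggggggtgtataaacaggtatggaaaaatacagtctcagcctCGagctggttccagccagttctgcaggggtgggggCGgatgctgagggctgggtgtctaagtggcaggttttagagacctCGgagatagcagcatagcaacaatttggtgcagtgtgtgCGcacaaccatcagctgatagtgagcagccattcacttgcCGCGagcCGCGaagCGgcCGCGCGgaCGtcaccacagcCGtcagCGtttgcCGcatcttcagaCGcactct
It holds 17 CpGs and 2 matches to the 6 letters, both strands read.

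Dcn codes for decorin, a proteoglycan that binds collagen fibrils in connective tissue, and is known to be imprinted in the mouse placenta, where the maternal copy is read. It had 59.2 and 54.0 CPM in the male knockout and 52.3 and 54.5 CPM in the female knockout, against 38.2 and 39.1 CPM in wild type. The wild-type libraries were close to each other and below every knockout library. The knockout mean was 1.42 times the wild-type mean, a log2 fold change of 0.51 (edgeR adjusted p = 0.0355, SE 0.109). In the male and female knockouts alone it was 0.55 and 0.47 (edgeR adjusted p = 0.06 and 0.118). The call was lost without mko1, mko2, wt1 or wt2 (edgeR adjusted p = 0.124, 0.0901, 0.0736 and 0.191), in fits with fewer libraries. The smooth muscle and pericyte list summed to between 100.4 and 117 CPM in the knockouts, against 74.7 and 77.2 CPM in wild type, with 2 of 8 tested genes higher (Rgs5 and Tagln) and none lower. The choroid plexus and meninges list summed to between 224 and 319.8 CPM, against 174 and 194 CPM in wild type, with 1 of 5 higher and none lower. The part of these cell types in the Dcn result was not tested.

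**Figure D3:**
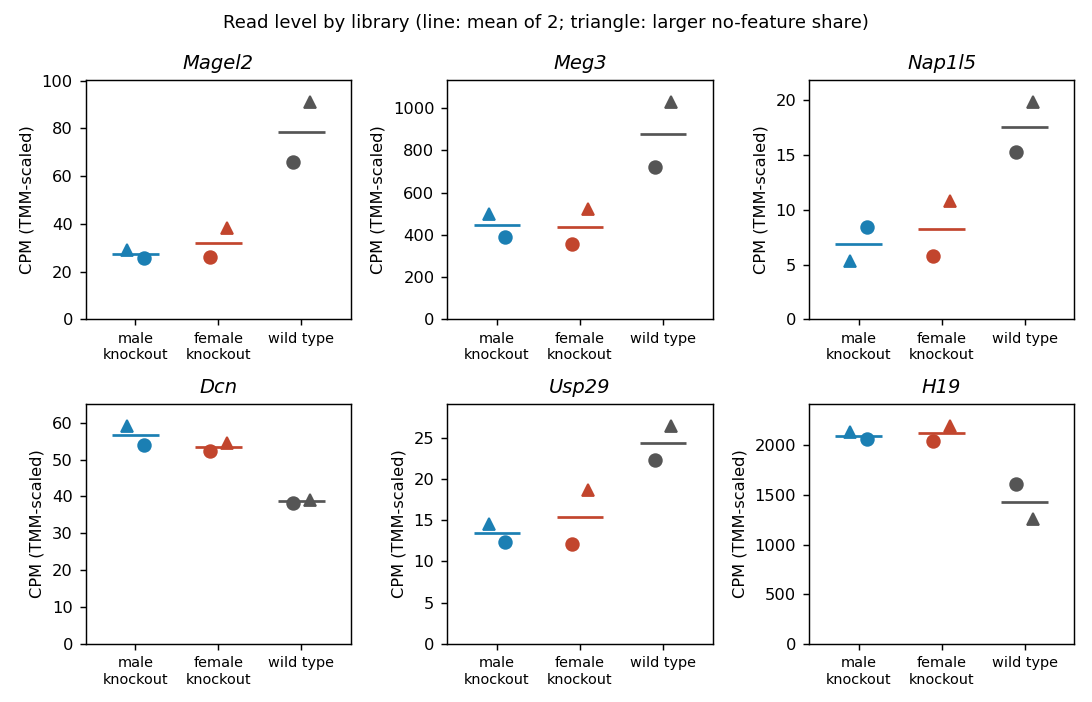
TMM-scaled CPM of 6 imprinted genes in each library, with male knockout, female knockout and wild type from left to right, a line at each mean of 2, and triangles for the libraries of the larger no-feature share. Magel2, Meg3, Nap1l5 and Usp29 are lower in every knockout library than in both wild-type libraries, and Dcn and H19 are higher; Usp29 and H19 did not pass the adjusted threshold.

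The Peg3 domain on chromosome 7 holds the paternally expressed Peg3, a zinc finger gene that affects growth and maternal care, Usp29, of a deubiquitinase family, and the maternally expressed zinc finger gene Zim1. Usp29 had 14.6 and 12.4 CPM in the male knockout and 12.1 and 18.7 CPM in the female knockout, against 22.4 and 26.5 CPM in wild type. Its groups did not overlap, and its log2 fold change of -0.76 (edgeR adjusted p = 0.0527, SE 0.186) stood just outside the threshold. Usp29 passed in 5 of the 12 alternative settings. Peg3 had 354 and 241 CPM in the male knockout and 288 and 382 CPM in the female knockout, against 408 and 433 CPM in wild type (-0.41, SE 0.179, edgeR adjusted p = 0.185). The ratio of Usp29 to Peg3 counts was 0.0412 in mko1, 0.0514 in mko2, 0.0422 in fko1 and 0.049 in fko2, against 0.0547 in wt1 and 0.0612 in wt2. Zim1 had 17.6 and 10.8 CPM in the male knockout and 11.7 and 20.1 CPM in the female knockout, against 15.0 and 18.1 CPM in wild type, and overlapped throughout.
Peg3 and Usp29 start 164 bases apart on opposite strands, and their promoter windows share 263 of 300 bases, so the Usp29 window (GRCm38.p6, chr7:6730333-6730632, plus strand, CpGs in capitals) shows the start region of both.
Usp29: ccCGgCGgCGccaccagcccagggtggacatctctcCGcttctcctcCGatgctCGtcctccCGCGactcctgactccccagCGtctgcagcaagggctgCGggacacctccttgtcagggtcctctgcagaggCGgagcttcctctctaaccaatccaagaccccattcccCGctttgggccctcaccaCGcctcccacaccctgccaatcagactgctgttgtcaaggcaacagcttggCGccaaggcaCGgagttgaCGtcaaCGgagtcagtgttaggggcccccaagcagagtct
It holds 17 CpGs and no match to the 6 letters.

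The letters TGCCGC were searched on both strands in the promoter windows of 28 of the 34 genes. H19, Cdkn1c, Peg10, Sgce, Dcn and Impact were not among them. At least 1 match lay in a window of 10 of the 28 genes (35.7%), and in 13.1% of the 27025 genes with a window. By windows the shares were 24.4% of 45 and 11.6% of 32851. The 10 were 7 of 17 paternally expressed genes (Igf2, Mcts2, Mest, Nap1l5, Nnat, Plagl1 and Snrpn), 2 of 8 maternally expressed genes (Meg3 and Zim1), and Grb10. By the richest window per gene, imprinted genes also carried more CpGs, with a median of 16 CpGs, against 8 over all genes. The 28 genes had more windows per gene, which raises a richest-window value, and CpGs were not compared window by window. The 6 letters themselves contain a CpG. A match is a run of letters and not a measured site.

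In the Igf2-H19 pair on chromosome 7, Igf2, the paternally expressed fetal growth factor gene, is silenced on the copy from which the noncoding RNA H19 is read. H19 had 2133 and 2062 CPM in the male knockout and 2044 and 2196 CPM in the female knockout, against 1607 and 1258 CPM in wild type. The knockout libraries were close together and above both wild-type libraries, yet the log2 fold change of 0.56 (edgeR adjusted p = 0.0978, SE 0.171) did not pass. Igf2 had 1470 and 1126 CPM in the male knockout and 1114 and 1392 CPM in the female knockout, against 1239 and 1215 CPM in wild type, with knockout libraries on both sides of wild type. The ratio of H19 to Igf2 counts was 1.45 in mko1, 1.83 in mko2, 1.83 in fko1 and 1.58 in fko2, against 1.30 in wt1 and 1.04 in wt2. Igf2r, the maternally expressed receptor gene on chromosome 17 whose product clears IGF2 from the cell surface, lay between 157 and 200.3 CPM in the knockouts, against 205 and 239.7 CPM in wild type (-0.32, SE 0.145, edgeR adjusted p = 0.203). H19, Igf2 and Igf2r, and the Peg10 cluster further on, were taken up library by library after their values were seen.

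The Igf signalling genes beside them did not pass as single genes. Of 15 tested partners none was called, while 1 was higher and 2 were lower at an unadjusted p under 0.05 and DESeq2 called 2. Over all genes, 11.4% were higher and 14.6% lower at that unadjusted p, and DESeq2 called 8.1%. The insulin receptor gene Insr lay between 58.8 and 80.3 CPM in the knockouts, against 90.8 and 112 CPM in wild type (log2 fold change -0.50, SE 0.152, edgeR adjusted p = 0.095). The growth factor gene Igf1 lay between 127 and 169 CPM in the knockouts, against 99.8 and 124 CPM in wild type (0.47, SE 0.149, edgeR adjusted p = 0.106). The insulin receptor substrate gene Irs2 had 27.8 to 30.8 CPM in the knockouts, against 35.5 and 42.2 CPM in wild type (-0.38, edgeR adjusted p = 0.108). Grb10, an adaptor gene that damps insulin and IGF receptors, lay between 1251 and 1418 CPM in the knockouts, against 1214 and 1193 CPM in wild type (edgeR adjusted p = 0.494).

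In the Peg10 cluster on chromosome 6, edgeR called no gene, while DESeq2 called Peg10 (adjusted p = 0.0377) and Asb4 (adjusted p = 0.04997). Peg10, a paternally expressed gene derived from a retrotransposon and needed for the placenta, had 362 and 252 CPM in the male knockout and 348 and 369.7 CPM in the female knockout, against 402 and 565 CPM in wild type (-0.54, SE 0.184, edgeR adjusted p = 0.12). Without wt2 its log2 fold change was -0.29 (edgeR adjusted p = 0.724), and without wt1 -0.77 (edgeR adjusted p = 0.0333). Sgce, the paternally expressed epsilon-sarcoglycan gene beside it, lay between 43.4 and 49.8 CPM in the knockouts, against 40.3 and 41.5 CPM in wild type (edgeR adjusted p = 0.292). Ppp1r9a, the maternally expressed gene of the synaptic scaffold neurabin, lay between 58.2 and 87.0 CPM in the knockouts, against 73.1 and 112 CPM in wild type. Asb4, a maternally expressed gene for a substrate adaptor of ubiquitin ligases, had 97.4 and 52.7 CPM in the male knockout and 117.5 and 89.7 CPM in the female knockout, against 49.1 and 64.4 CPM in wild type. Its mko2 value lay between the wild-type libraries, and the log2 fold change of 0.63 (edgeR adjusted p = 0.153, SE 0.243) did not pass and was 0.38 without mko1. The ratio of Asb4 to Peg10 counts was nonetheless higher in each knockout library, at 0.269 in mko1, 0.209 in mko2, 0.337 in fko1 and 0.243 in fko2, against 0.122 in wt1 and 0.114 in wt2. Peg10/Sgce lay between 5.23 and 8.33 in the knockouts, against 9.97 and 13.6 in wild type, without overlap. The ratios Rian/Dlk1, Mirg/Dlk1 and Cdkn1c/Kcnq1ot1 overlapped between knockout and wild type. How often ratios of other gene pairs separate in this way was not computed.

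**Figure D4:**
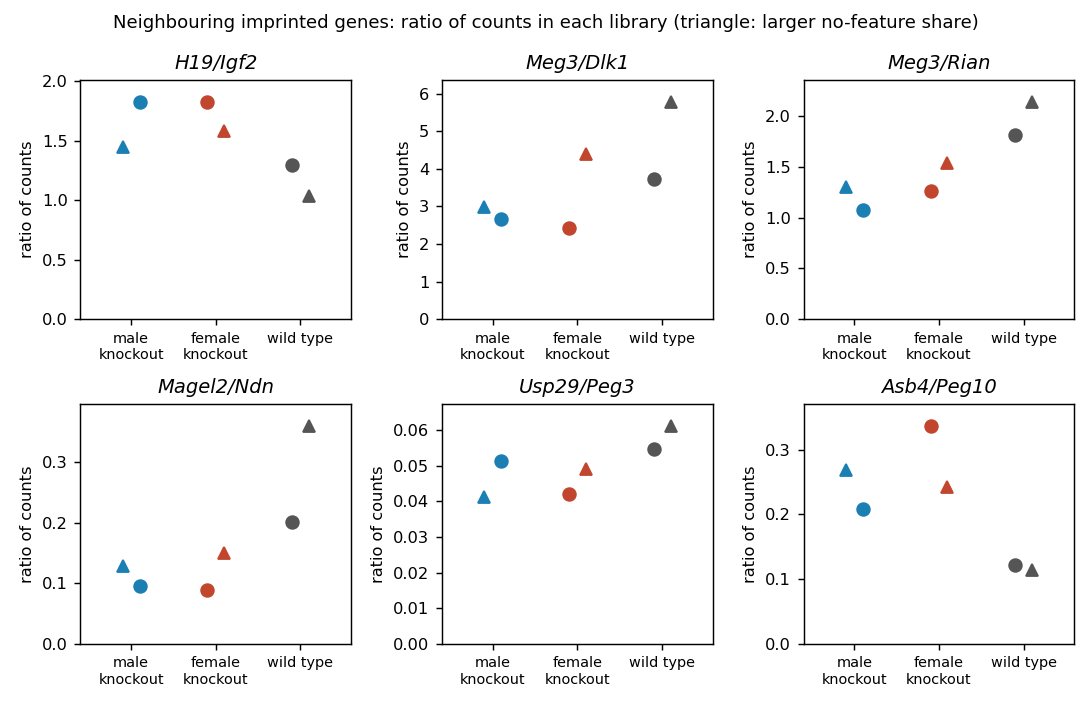
Ratio of raw counts of neighbouring imprinted genes in each library, with male knockout, female knockout and wild type from left to right. H19/Igf2 and Asb4/Peg10 are higher in all 4 knockout libraries than in both wild-type libraries, Meg3/Rian, Magel2/Ndn and Usp29/Peg3 are lower, and Meg3/Dlk1 overlaps. Of the ratios not drawn, Rian/Dlk1, Mirg/Dlk1 and Cdkn1c/Kcnq1ot1 overlapped, and Peg10/Sgce was lower in every knockout library.

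In the Kcnq1 domain on chromosome 7, Cdkn1c, which codes for the cell cycle inhibitor p57, had 549 and 551 CPM in the male knockout and 548 and 480 CPM in the female knockout, against 513 and 410 CPM in wild type, with fko2 below wt1 (edgeR adjusted p = 0.377). Kcnq1ot1, the paternally expressed noncoding RNA that silences the domain in cis, lay between 284 and 437 CPM in the knockouts, against 283.5 and 429 CPM in wild type (edgeR adjusted p = 0.992). It runs antisense to Kcnq1, and with the strand setting not given its reads and those of Kcnq1 cannot be told apart where they overlap. Phlda2, a growth-restraining gene of the placenta, had 19 and 20 counts in the male knockout, 16 and 30 counts in the female knockout, and 18 and 3 in wild type (log2 fold change 1.04, SE 0.557, edgeR adjusted p = 0.26).

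None of the remaining paternally expressed genes, nor Gnas, passed. Plagl1, a zinc finger gene known to regulate other imprinted genes, had 123 and 104 CPM in the male knockout and 75.9 and 137 CPM in the female knockout, against 114 and 174 CPM in wild type (-0.39, SE 0.239, edgeR adjusted p = 0.313). Mest, of a hydrolase family, lay between 585 and 687 CPM in the knockouts, against 658 and 689.7 CPM in wild type. Nnat, the neuronal proteolipid neuronatin, lay between 1251 and 1650 CPM in the knockouts, against 1564 and 1318 CPM in wild type. The translational regulator gene Impact ranged from 59.6 to 74.9 CPM, against 63.9 and 80.6 CPM in wild type, and the amino acid transporter gene Slc38a4 from 54.1 to 64.4 CPM, against 52.6 and 61.7 CPM. The retrogenes Zrsr1, a splicing factor copy, and Mcts2, a copy of Mcts1, ranged from 14.4 to 16.4 CPM and from 22.9 to 27.4 CPM in the knockouts, against 15.6 and 14.8 CPM and 21.9 and 22.7 CPM in wild type, and reads could be split with their source copies. Gnas, which codes for a G protein subunit and has several imprinted promoters, lay between 1173 and 1297 CPM in the knockouts, against 1222 and 992 CPM in wild type.

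The direct comparison of female with male knockout asks whether the 2 differ, with sex and the number of floxed Utx copies going together. Uty, the Y-linked relative of Utx, goes with sex as well. It had 39.4 and 34.5 CPM in the male knockout, 0 and 0.646 CPM in the female knockout, and 33.3 and 39.4 CPM in wild type. None of the 34 genes passed edgeR's adjusted threshold, none was under an unadjusted p of 0.05, and none was called by DESeq2, limma-voom or any of the other alternatives, where 0.0344% of all genes passed. Log2 fold changes ran from -0.28 to 0.70. For Magel2 the female minus male difference was 0.23 (SE 0.219), for Meg3 -0.02 (SE 0.243), for Nap1l5 0.26 (SE 0.33) and for Dcn -0.08 (SE 0.123). That none passed with 2 libraries per group does not show that the knockouts are alike.

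When the model also held a term for the 2 sets of libraries, 15 of the 34 genes passed in the combined comparison, 3 higher and 12 lower, where 32.6% of all genes passed. The 3 were Asb4, Dcn and H19. The 12 were Dlk1, Igf2r, Magel2, Meg3, Mirg, Nap1l5, Peg10, Peg3, Plagl1, Ppp1r9a, Rian and Usp29, made up of 7 of the 20 paternally and 5 of the 11 maternally expressed genes. Of all genes, 16.3% were higher and 16.3% lower in that fit. In the male knockout alone 11 passed, where 24.7% of all genes did, and in the female knockout alone 15, where 23.3% did. The fold changes themselves barely moved, for example -1.40 for Magel2, -0.98 for Meg3 and -1.21 for Nap1l5.

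Between the 2 libraries of a genotype, the level of several imprinted genes differed the same way in all 3 genotypes. The library with the larger no-feature share was the higher in all 3 genotypes for 15 of the 34 genes and the lower for 4, where 25.8% and 27% of all genes were. Kcnq1ot1 was higher there by 0.51 on the log2 scale between the male knockout libraries, 0.51 between the female knockout libraries and 0.60 between the wild-type libraries. Meg3 was higher by 0.35, 0.55 and 0.52, and Ppp1r9a by 0.43, 0.43 and 0.61, in the same order. Nnat was lower in all 3, at -0.27, -0.36 and -0.25, as were Ndn, Cdkn1c and Gnas. Of the maternally expressed genes 7 of 11 were higher and 1 lower, and of the paternally expressed genes 7 of 20 and 2.

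**Figure D5:**
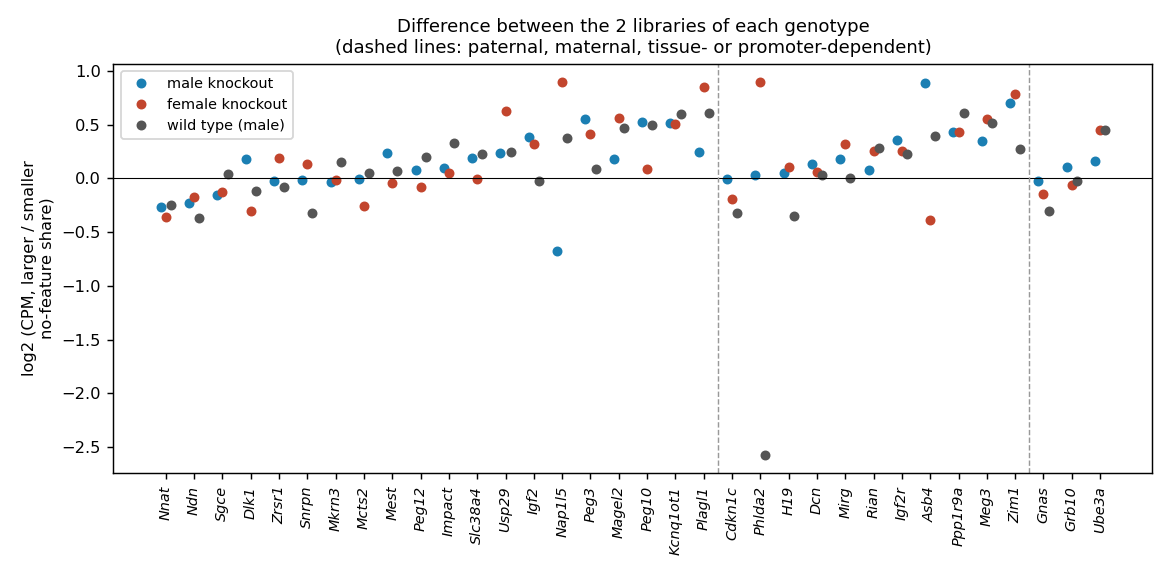
Log2 ratio of CPM between the library with the larger and the library with the smaller no-feature share within male knockout, female knockout and wild type, 1 point per genotype. Kcnq1ot1, Meg3 and Ppp1r9a lie above 0 and Nnat, Ndn, Cdkn1c and Gnas below 0 in all 3 genotypes.

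Among other imprinted genes, taken from a list beyond the 34, edgeR called 1 and DESeq2 called 3. Over all genes DESeq2 called 8.1%. Of 46 names 44 were in the table and 32 were tested, of which Ddc fell and none rose by edgeR, where 5.11% of all genes passed, with a median log2 fold change of -0.06. Ddc, which codes for the DOPA decarboxylase of catecholamine and serotonin neurons and is known to be imprinted in the mouse heart, lay between 3.54 and 4.13 CPM in the knockouts, against 9.50 and 9.21 CPM in wild type (-1.29, SE 0.166, edgeR adjusted p = 0.00664). Peg13, a paternally expressed noncoding RNA, lay between 63.7 and 91.3 CPM in the knockouts, against 105 and 115 CPM in wild type (-0.49, SE 0.129, edgeR adjusted p = 0.0638). Inpp5f, a phosphoinositide phosphatase gene, lay between 52.5 and 79.7 CPM in the knockouts, against 83.3 and 107 CPM in wild type (-0.63, SE 0.175, edgeR adjusted p = 0.0776).

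Among 18 tested factors that maintain imprints none was called by edgeR, while 2 were lower at an unadjusted p under 0.05 and DESeq2 called 1. Over all genes, 14.6% were lower at that unadjusted p, and DESeq2 called 8.1%. Zfp57, whose protein binds TGCCGC, had 106 and 97.2 CPM in the male knockout and 98.9 and 110.5 CPM in the female knockout, against 130.5 and 159 CPM in wild type (-0.49, SE 0.123, edgeR adjusted p = 0.0581). Each knockout library lay below both wild-type libraries, as for 20.1% of all genes tested. The same held for Zfp445, the other of the 2, at 163 to 209.8 CPM in the knockouts, against 223.9 and 283.4 CPM in wild type. It did not pass (-0.42, SE 0.152, edgeR adjusted p = 0.137). Uhrf1, which brings the maintenance methyltransferase to DNA, lay between 187 and 216 CPM in the knockouts, against 173 and 169.5 CPM in wild type (0.25, SE 0.118, edgeR adjusted p = 0.216). Of 12 tested hosts, source copies and neighbours of the 34 genes none was called by edgeR or by DESeq2. At an unadjusted p under 0.05 in edgeR, 1 was higher and 3 were lower, where 11.4% and 14.6% of all genes were.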

How the data were processed

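The deposited RNA table holds raw read counts per gene, and its last 5 lines are HTSeq's summary of unassigned reads, 38.6% to 45.6% of the table's reads, which stayed out of library sizes and tests. The tools named in the submitters' processing notes are HTSeq, TopHat2 with Bowtie2, Trimmomatic, MACS2, SAMtools and bedtools, and the build is mm9. Versions, the annotation and the strand setting of the counting are not given in the sources used here. The chromatin files are on mm9, for which no annotation was at hand, and were not used here.

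Groups came from the sample titles (2 libraries each). All genes were fitted together with edgeR 4.0.16 in R 4.3.3 (filterByExpr, minimum count 10, TMM factors, 3 group means, quasi-likelihood test), with p adjusted by Benjamini-Hochberg over 14521 genes and a threshold of 0.05; the fit was tested on simulated data. CPM are counts scaled to the reads on genes times the TMM factor. limma 3.58.1 (voom) and DESeq2 1.42.0 were alternative tools. The precision rests on 2 libraries per group of 14513993 to 16350892 counts. Genes were described library by library where they passed, where knockouts and wild type did not overlap with a log2 change of at least 0.58, or where a cluster neighbour did so; others were added after their values were seen. The imprinted genes, lists and settings were chosen with earlier results of these data known. The result of 1 marker list is not reported here. All 34 symbols matched the RefSeq gene table, used for chromosomes; promoter windows are RefSeq's, GRCm38.p6, and were searched with Python 3.11.15. Plots were drawn with matplotlib 3.10.9.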

Additional observations from a re-analysis of the deposited data

How the results depend on the processing

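The count of imprinted genes changed depended on the libraries and the model in the fit. For the male knockout it was 7 with DESeq2, 5 with only the groups compared, 2 with the replicate block and 11 with a term for the 2 sets of libraries, against 1, and leaving out single libraries gave 0 to 5. For the female knockout it was 5 with DESeq2, 0 with only the groups compared, 2 with the replicate block and 15 with that term, against 1, and leaving out single libraries gave 0 to 6. For both knockouts it was 8 with DESeq2 and 15 with that term, against 4, and 1 to 7 without single libraries; the replicate block gave 4. For the female against the male knockout it was 0 throughout. In the male knockout DESeq2 called 5.47% of all genes, the fit of the compared groups alone 6.54% and the replicate block 3.31%, against 2.34%. In the female knockout these shares were 3.58%, 0.23% and 2.27%, against 1.12%. For both knockouts DESeq2 called 8.1% of all genes, against 5.11%. In these settings the count of imprinted genes and the share of all genes moved the same way. Counts of all genes moved as well, as without mko1 or mko2, where 0.0202% and 0.0135% of genes passed in the male knockout. Where a group keeps 1 library, it is assumed to vary like the others; the cause of the differences was not tested. Under limma-voom, upper-quartile factors and no filter each count was the same. Single fold changes were recomputed under the alternatives for 14 of the imprinted genes, not for Phlda2, Plagl1 or genes outside the 34, and 1 value reversed: Asb4 in the male knockout stood at -0.11 without mko1 and 0.78 without mko2, the lowest and highest without single libraries. Same-numbered libraries did not deviate together in every pair (r across genes -0.269 for wild type and male knockout, 0.544 for wild type and female knockout, -0.28 for both knockouts). The numbers are therefore not taken as pairs, and the crossed pairing, with the male numbers swapped, is the set term. Depth limits Snrpn and Phlda2, with 3 to 30 counts per library.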
